A study of Homo sapiens with 4 samples.

Results

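The transcription factors described here are HNF4A, HNF4G, PAX2, PAX8, LHX1, EMX2, WT1 and GATA3, which act in the specification or maintenance of the kidney epithelium. They were taken by gene name on the array, from a list chosen with earlier results of these data known. They make up 8 of the 25667 gene names with a value on every array and 11 of 34127 probes. All samples were human proximal tubular cells (HPTCs) in culture, which were starved of serum and supplements over 24 h before a stimulation of 24 h by IL-1β (10 ng/mL), an inflammatory cytokine, together with Empa (500 nM), an inhibitor of the glucose transporter SGLT2. 2 arrays were labelled HK-2, a line from human kidney cortex carrying papillomavirus E6/E7, and 2 were labelled RPTEC/TERT1, a line immortalised by the telomerase subunit TERT. The arrays are written H1 and H2 (labelled HK-2, replicates 1 and 2) and R1 and R2 (labelled RPTEC/TERT1, replicates 1 and 2). Both are single immortalised lines kept in media of their own, and arrays of unstimulated cells or of cells given IL-1β without Empa were not analysed here. The study asked how Empa affects IL-1β-stimulated gene expression in both lines, and the comparison open to these 4 arrays is that of the lines under the same stimulation.

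PAX2 and PAX8 are paired-box factors that mark the nephric lineage from its earliest stages, and LHX1 (a LIM homeodomain factor) and EMX2 (a homeodomain factor) act in the nephric duct, the ureteric bud and the early nephron. WT1 is a zinc finger factor of nephron progenitors that stays on in podocytes, and GATA3 is a zinc finger factor of the nephric duct, the collecting duct and the mesangium. HNF4A and its paralogue HNF4G are nuclear receptors, and HNF4A drives the maturation of proximal tubule cells.

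Each array was read in 1 colour, and a level here is the log2 of a gene's signal divided by the 75th percentile of the signals on that array. A probe is called well above background where the scanner software marked it so. Signals under a common floor were set to it. The floor lies at 2.42% of that percentile, the weakest signal so marked on H1, and has a level of -5.37. On H2, R1 and R2 the weakest signals so marked lay at 1.38%, 0.90% and 1.43%, so that some marked signals were floored as well. The 75th percentiles ran from 393 to 748 signal units, and 59.2% to 64.9% of spots were well above background. The arrays did not group by their labels. Across 17928 genes H1 had a Pearson correlation of 0.980 with R2, and H2 one of 0.976 with R1, whereas arrays with the same label correlated at 0.865 (HK-2) and 0.855 (RPTEC/TERT1). The correlations were computed over genes, and genes are not independent replicates. The arrays thus go against their labels, and whether labels were exchanged between arrays was not tested. Values are therefore given by array, and every mean or difference of HK-2 and RPTEC/TERT1 holds only as far as the labels do.

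PAX2, EMX2 and PAX8 were highest on H1 and R2, LHX1 was lowest on those arrays, and HNF4A and WT1 were not well above background on any array. Of the 8 factors, 2 (PAX8 and LHX1) were well above background on all 4 arrays, 3 (PAX2, EMX2 and HNF4G) on 2 or 3 arrays, 1 (GATA3) on 1 array and 2 on none. Among the 25667 genes with a value on every array, 13778 were so on all 4 and 17928 on at least 1. HNF4G was counted over its probes together, of which none was so on more than 2 arrays. Fewer cells with a transcript and less of it per cell cannot be told apart in bulk RNA.

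**Figure D1:**
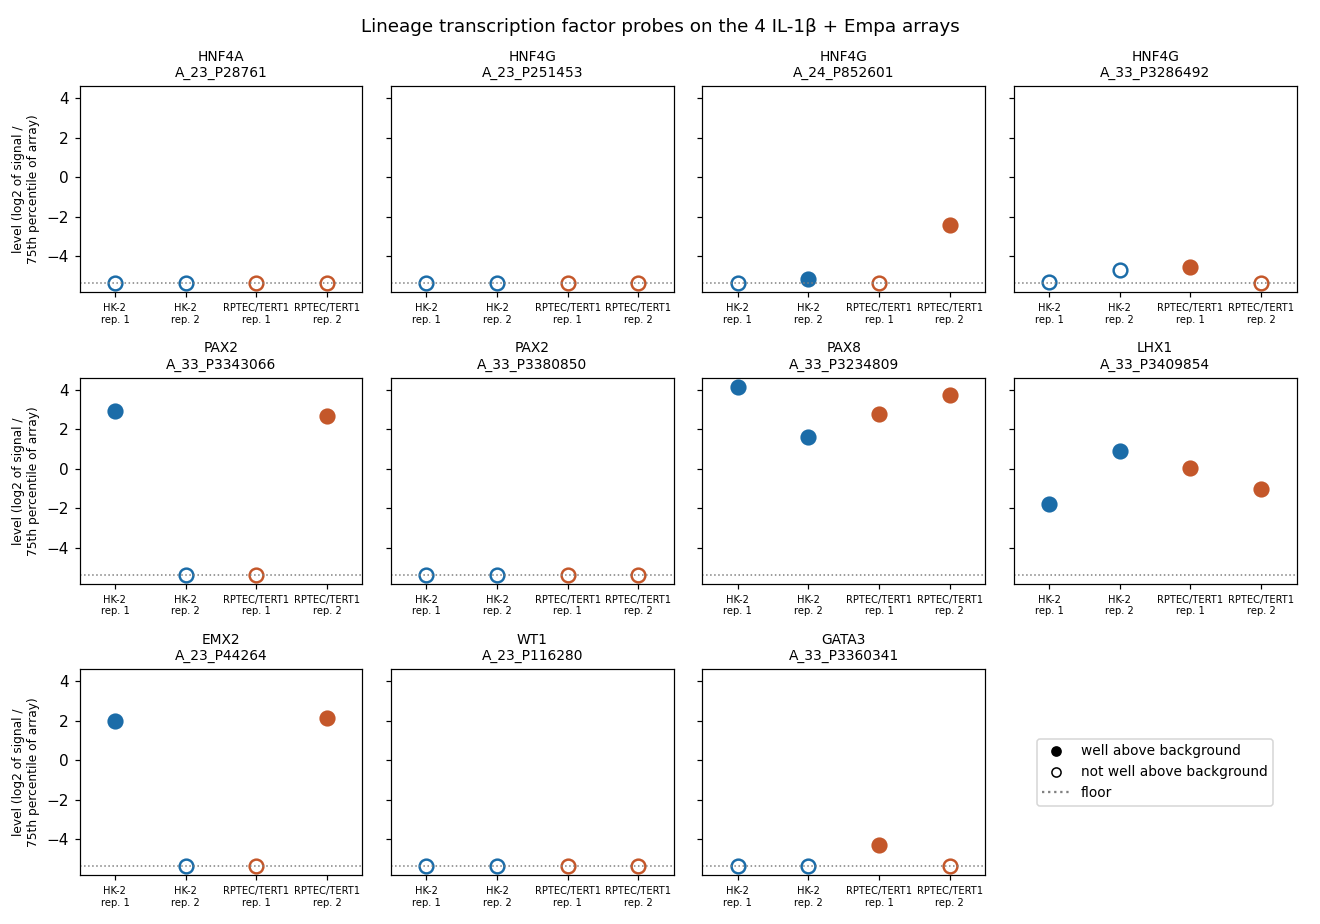
Level of each of the 11 probes (vertical axis, log2 of the signal over the 75th percentile of the array) on the 4 arrays (horizontal axis, blue for the label HK-2 and orange for RPTEC/TERT1). Filled points are well above background, open points are not, and the dotted line is the floor. PAX2 (probe A_33_P3343066) and EMX2 sit between 1.99 and 2.90 on H1 and R2 and at the floor of -5.37 on the other arrays.

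PAX2 had 2 probes, which disagreed. Probe A_33_P3343066 (GRCh37 chr10:102589603-102589662) gave signals of 2936 on H1, -0.912 on H2, -0.417 on R1 and 2715 on R2. The signal was thus high on 1 array of each label and at background on the other. H1 was at least 309-fold brighter than H2, and R2 was at least 262-fold brighter than R1, each bound being set against the floor. Probe A_33_P3380850 (chr10:102568921-102568980), which the files assign to another transcript of the gene, gave 6.77, 5.92, 2.77 and 7.92 in the same order and was not well above background on any array. Its 60 bases are shown because it is the PAX2 probe that stayed dim where the other one was bright, in lower case throughout.
PAX2 probe A_33_P3380850: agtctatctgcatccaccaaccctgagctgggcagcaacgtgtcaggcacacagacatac

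EMX2 (A_23_P44264, chr10:119308881-119308940) gave signals of 1566 on H1, -3.33 on H2, -2.45 on R1 and 1903 on R2. The arrays that were high for PAX2 were also high for EMX2. The differences within a label were at least 165-fold in HK-2 and at least 184-fold in RPTEC/TERT1. EMX2OS, the antisense transcript of the EMX2 locus (A_24_P892472, chr10:119243834-119243893), had levels of 2.12 on H1 and 2.42 on R2, and it was at the floor on the other arrays. The antisense genes of other factors did not share this, since PAX8-AS1 and GATA3-AS1 were not well above background on any array.

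The promoters of PAX2 and EMX2 are shown because their transcripts were high and low on the same arrays, and that of PAX8 because its 2 highest arrays were the same, with a smaller range. Each is the 250 bases before an annotated start (RefSeq, GRCh38.p14), printed 5′ to 3′ on the strand of the gene. 6 of the 8 factors had such a window in the table used, and PAX2 had 2. Capitals mark every match, on either strand, to the core motifs TATAAA of the TATA box, CCAAT of the box of that name, GGGCGG of the GC box and TAATTA of many homeodomain proteins.
EMX2 (chr10:117542496-117542745, + strand): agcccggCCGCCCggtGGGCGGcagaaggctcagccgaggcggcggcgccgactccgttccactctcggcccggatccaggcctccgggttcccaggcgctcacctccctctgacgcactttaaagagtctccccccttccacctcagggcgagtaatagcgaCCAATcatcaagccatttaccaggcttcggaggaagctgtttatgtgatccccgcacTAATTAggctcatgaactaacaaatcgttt
PAX2 start 1 (chr10:100735146-100735395, + strand): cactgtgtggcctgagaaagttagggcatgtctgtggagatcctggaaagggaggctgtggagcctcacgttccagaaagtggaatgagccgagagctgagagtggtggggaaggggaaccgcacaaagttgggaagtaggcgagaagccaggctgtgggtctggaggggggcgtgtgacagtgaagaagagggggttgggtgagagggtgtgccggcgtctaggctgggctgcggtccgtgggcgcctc
PAX2 start 2 (chr10:100745332-100745581, + strand): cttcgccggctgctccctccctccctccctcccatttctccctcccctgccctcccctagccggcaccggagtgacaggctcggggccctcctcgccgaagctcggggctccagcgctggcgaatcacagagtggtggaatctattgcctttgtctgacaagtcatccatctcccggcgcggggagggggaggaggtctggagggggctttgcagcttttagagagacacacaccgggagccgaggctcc
PAX8 (chr2:113278922-113279171, - strand): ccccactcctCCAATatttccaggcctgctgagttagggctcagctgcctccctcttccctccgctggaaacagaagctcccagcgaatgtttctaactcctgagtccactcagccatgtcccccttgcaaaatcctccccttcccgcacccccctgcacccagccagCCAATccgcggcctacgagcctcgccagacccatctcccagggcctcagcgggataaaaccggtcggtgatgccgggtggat

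EMX2 held 1 CCAAT, 2 GGGCGG and 1 TAATTA match, PAX8 held 2 CCAAT matches, and neither PAX2 window held a match to any of the 4. Over all 35116 windows of 250 bases, 32% held CCAAT, 42.6% GGGCGG, 4.35% TAATTA and 10.7% TATAAA. The windows held 20 CpG dinucleotides in EMX2, 10 and 15 in PAX2 and 11 in PAX8, against a median of 11. A match describes the letters of the window and says nothing of binding.

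PAX8 (A_33_P3234809, chr2:113973575-113973634) was well above background on all 4 arrays. Its signals were 6869 on H1, 2287 on H2, 3366 on R1 and 5669 on R2, which gave levels of 4.13, 1.61, 2.79 and 3.73. The same arrays were highest as for PAX2 and EMX2, but no array was near the floor. H1 was 5.71-fold higher than H2, and R2 was 1.92-fold higher than R1.

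LHX1 (A_33_P3409854, chr17:35300424-35300483) ran the other way. Its signals were 114 on H1, 1381 on H2, 505 on R1 and 207 on R2, or levels of -1.79, 0.89, 0.05 and -1.05. H2 was 6.40-fold above H1, and R1 was 2.14-fold above R2. The signal on H1 was marked as well above background, although the brightest of the 153 negative control spots there reached 171. The 95th percentile of those control spots was 5.15.

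HNF4G had 3 probes, which disagreed on the order of the arrays. Probe A_24_P852601 gave -5.27 on H1, 20.7 on H2, 7.96 on R1 and 79.8 on R2, and was well above background on both replicate 2 arrays. On R2, where the brightest negative control spot reached 12.1, it was at least 7.71-fold over R1. Probe A_33_P3286492 gave 9.92, 28.4, 20.6 and 8.98 and was well above background on R1 alone, and probe A_23_P251453 (-2.94 to 10.6) was not on any array. The mean of the first 2 probes gave levels of -5.34, -4.95, -4.97 and -3.90, so that the highest value rested on 1 probe on 1 array.

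HNF4A (A_23_P28761, chr20:43036102-43042379) had signals from -3.85 to -0.880, all at background. The probe is shown because it is the only measure of HNF4A here, and its 60 bases lie over a span of 6278 bases of the genome, so that it crosses at least 1 intron.
HNF4A probe A_23_P28761: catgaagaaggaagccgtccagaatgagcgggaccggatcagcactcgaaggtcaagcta

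WT1 (A_23_P116280, chr11:32410332-32410391) was spotted 10 times on each array, and its mean signals ran from -1.83 to 2.67. Its brightest spot reached 8.81, on H2. GATA3 (A_33_P3360341, chr10:8117072-8117131) gave 0.879 on H1, 0.221 on H2, 24.5 on R1 and -7.77 on R2. It was well above background on R1 alone, at least 2.08-fold over R2. On R1 the brightest negative control spot reached 49.3, and the 95th percentile of these spots was 3.91. HNF4A, WT1 and GATA3 were therefore not compared between the lines.

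The lines were compared by limma over 16468 genes, those measured well above background on 2 arrays or more, and 5 of the 8 factors entered. The p-values were adjusted by the Benjamini-Hochberg method. PAX2 and EMX2 entered through the arrays where they were high. No factor passed the threshold of 0.05, nor did any other gene (0% of genes tested), and at an unadjusted p under 0.05 there were 23 genes (0.140%), none of them a factor. The arrays of the lines overlapped for all 5 factors, against 4.36% of genes tested that were higher on both HK-2 arrays and 2.81% that were lower.

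PAX8 averaged 2.87 ± 1.78 (SD, n = 2) in HK-2 and 3.26 ± 0.66 (SD, n = 2) in RPTEC/TERT1, a difference of -0.39 (SE 1.01, 95% interval -3.12 to 2.35, limma adjusted p = 1). LHX1 averaged -0.45 ± 1.89 (SD, n = 2) and -0.50 ± 0.78 (SD, n = 2), a difference of 0.05 (SE 1.08, interval -2.86 to 2.96). Neither difference exceeded the spread between arrays of a label. PAX2 differed by 0.12 (SE 3.97, interval -10.62 to 10.86) and EMX2 by -0.08 (SE 3.63, interval -9.90 to 9.74), both with the dim arrays at the floor. HNF4G differed by -0.71 (SE 0.57, interval -2.26 to 0.84, limma adjusted p = 1). On each of H1, R1 and R2, 1 of the 2 averaged HNF4G probes was at the floor. The intervals are too wide to show that the lines were alike, and an exact permutation test of 2 arrays against 2 could not go below a two-sided p of 0.333.

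For PAX8, LHX1, PAX2 and EMX2 the sign of the difference was opposite in replicate 1 and replicate 2. Replicate 1 of both lines was scanned on a common date and replicate 2 on another. Between the replicate 1 arrays (HK-2 minus RPTEC/TERT1) PAX8 differed by 1.34 and LHX1 by -1.84, and between the replicate 2 arrays PAX8 differed by -2.11 and LHX1 by 1.94. PAX2 and EMX2 were at the floor on 1 array of each comparison, so that their differences are distances to the floor, of 8.27 and 7.37 between the replicate 1 arrays and -8.03 and -7.52 between the replicate 2 arrays. All 4 factors changed sign between the scan dates, each value being 1 array against 1 array, with no test. The opposite signs restate the crossed order of the arrays and are no separate result. They arise wherever the 2 highest arrays are H1 and R2 (38.8% of genes tested) or H2 and R1 (33.2%). HNF4G differed by -0.37 and -1.05, but its difference over all arrays turned to 0.85 with normexp background correction and to 0.49 with the deposited log2 values.

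**Figure D2:**
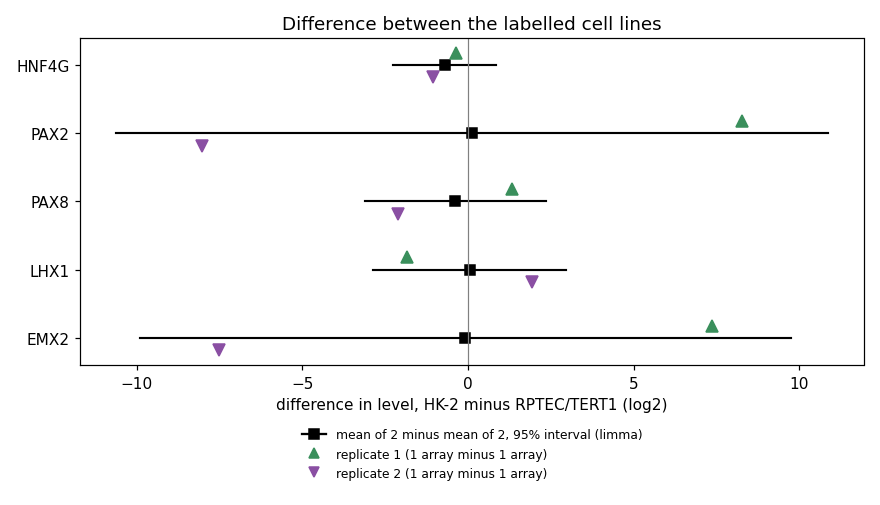
Difference in level between the labels, HK-2 minus RPTEC/TERT1 (horizontal axis, log2), for the 5 factors that were tested. Squares are the differences of the means of 2 arrays with their 95% intervals from limma, and triangles are the differences within replicate 1 (up) and replicate 2 (down). The squares lie between -0.71 and 0.12, while the triangles of PAX2, measured from the floor, lie at 8.27 and -8.03.

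The spread over the arrays was wide for PAX2 and EMX2. Their ranges of 8.27 and 7.52 (log2, from the floor) were among the 0.352% of genes tested (58 genes) with a range of at least 7. PAX8 and LHX1 had ranges of 2.51 and 2.68, and the median range was 2.68 over the 5 factors and 1.05 over all genes tested. PAX2 and EMX2 entered only through the arrays where they were high, and the factors were chosen with earlier results known. The ranges describe these arrays and are no separate result about the factors. H1 and R2 were the 2 highest arrays for 3 of the 5 factors (PAX2, EMX2 and PAX8) and for 38.8% of genes tested. H2 and R1 were the 2 highest for 1 factor (LHX1) and for 33.2% of genes tested. Both orders are common among the genes on these arrays. With a gap of at least 1 between the 2 highest and the other arrays, the counts were 2 factors (11.7% of genes tested) and 1 factor (11.0%).

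The genes whose profile over the 4 arrays was nearest to that of a factor were searched among 13778 genes well above background on all arrays. The measure was the root mean square difference of gene-centred levels. Genes dim on any array, such as EMX2OS, could not be found, so that nearest holds only within the genes searched. For PAX2 and EMX2 the distances rest on where the floor was placed, since both were at it on H2 and R1. Those of HNF4G rest on it in part, since 1 of its 2 averaged probes was at the floor on each of H1, R1 and R2. Nearest to PAX2 was CASP4, an inflammatory caspase, at 0.21, with levels of 3.71, -4.34, -4.01 and 3.91. Nearest to EMX2 was MAL, a proteolipid of apical sorting, at 0.15, and AKR1C3, an aldo-keto reductase, came second for both (0.45 for PAX2 and 0.24 for EMX2). For PAX8 they were C1orf116 (0.07) and COL12A1 (0.08), a collagen. For LHX1 they were COL8A2, another collagen, and the histone gene HIST1H2AM (0.08 each). For HNF4G they were CRELD2, a gene of the endoplasmic reticulum, at 0.11 and the unnamed probe A_33_P3324552 at 0.13.

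Among the paralogues of the factors, 6 of 13 genes were tested and none passed. NR2F2, a nuclear receptor of the COUP family, had levels of 3.65 on H1, 0.98 on H2, 1.01 on R1 and 3.73 on R2. Its 2 highest arrays were those of PAX8, as for 3 of the 6 paralogues and 38.8% of genes tested. RXRA and RXRB, nuclear receptors that pair with many others, ranged from 0.73 to 1.79 and from -1.34 to -0.55. EMX1 lay between -2.18 and -1.03. Of the GATA family, GATA6 lay between -2.05 and -1.53, GATA4 was at -3.50 on H1 and within 0.03 of the floor elsewhere, and GATA1 and GATA5 were not well above background on any array, nor were PAX5 and LHX5. NR2F1 was well above background on 1 array (-3.87 on H2).

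Of 40 other transcription factors of the kidney, 38 had a value on all arrays, of which 14 were well above background on all 4, 16 on 1 to 3 and 8 on none. 28 were tested and none passed, with a median difference of 0.02 beside 0.02 over all genes tested. H1 and R2 were the highest arrays for 21 of the 28 (38.8% of genes tested), and with a gap of at least 1 for 17 (11.7% of genes tested). The median range was 2.25, and several of these genes entered through the arrays where they were high. IRX1 and IRX2, Iroquois factors of the nephron segments, had levels of 1.52 and 1.92 on H1 and of 1.80 and 2.06 on R2, and both were at the floor on the other arrays. ELF3, an epithelial ETS factor, ranged from 0.95 to 2.65, FOXD1, a factor of the renal stroma, from 1.32 to 2.21, and IRX3 from 0.69 to 2.48. MEIS2, a homeodomain factor, ran the other way, with -4.54, -1.35, -1.51 and -5.37. The nephron progenitor factors SIX2, OSR1 and CITED1 were not well above background on any array.

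**Figure D3:**
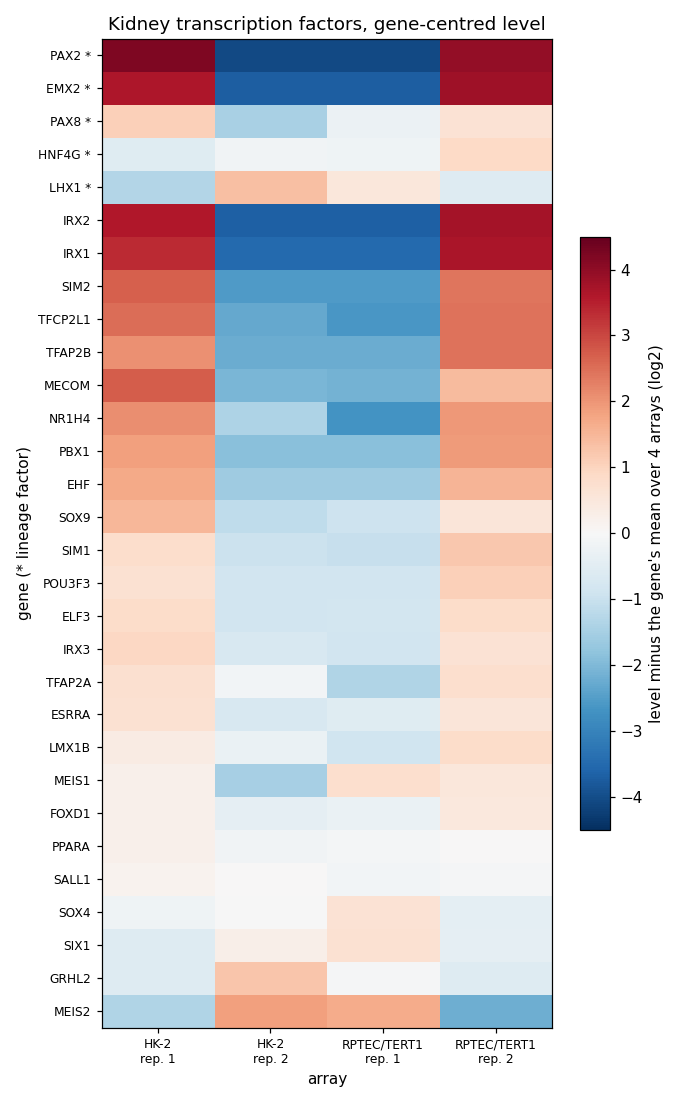
Gene-centred level (colour, log2, level minus the gene's mean over the 4 arrays) of the 5 tested lineage factors (marked with an asterisk) and 25 of the 28 other kidney transcription factors tested, on each array (columns). Genes are ordered within each block by their sum on H1 and R2. IRX1 and IRX2 show the same columns high and low as PAX2 and EMX2, and MEIS2 shows the opposite, as LHX1 does.

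Cofactors of these proteins were tested for 11 of 15 genes, and none passed. BASP1, a corepressor of WT1, had levels of 5.26, 2.71, 2.77 and 5.33, and WTAP, which binds WT1, ranged from -0.89 to 0.76. PAXIP1, a partner of PAX proteins in histone methylation, stayed between 0.57 and 1.01. PPARGC1A, a coactivator of HNF4A, ranged from -3.62 on H2 to -0.74 on H1. LDB1, the partner of LIM homeodomain factors, lay between -2.90 and -2.33, and SSBP2, which binds LDB1, between -3.28 and -1.29.

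Genes of nephric duct and nephron development were tested for 10 of 19, and none passed. H1 and R2 were the 2 highest arrays for 1 of the 10 (38.8% of genes tested), and H2 and R1 for 5 (33.2%). CDH16 (kidney cadherin), a known target of PAX8, had levels of 4.83 on H1, -0.55 on H2, -0.55 on R1 and 4.97 on R2. A link of these levels to PAX8 was not tested. The highest arrays of CDH16 were those of PAX2, EMX2 and PAX8. CDH6, the cadherin of the early proximal tubule, had -3.26, 0.27, 0.86 and -3.49, the reverse. GDNF, the ligand of ureteric bud outgrowth, was at the floor on H1 and R2 and had -2.26 and -1.95 on the others, and its coreceptor GFRA1 had -1.43, 0.95, 1.31 and -1.51. RET, the receptor, followed neither order, with -0.84, -3.17, 0.81 and -3.64. NPNT ranged from 0.52 to 1.66 and NOTCH2 from 0.62 to 0.91.

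Of 14 genes known as targets of HNF4 proteins, 11 were not well above background on any array, and 3 were tested, none of which passed. Among the 25667 genes with a value on every array, 17928 were well above background on at least 1. A link of these levels to HNF4A was not tested. SERPINA1 (alpha-1 antitrypsin) ranged from 3.12 to 3.77, APOM from -3.13 to -1.90 and APOA1 from -4.95 to -4.51. Among 23 markers of the proximal tubule, the labelled cell type, 12 were well above background on all arrays, 4 on 1 to 3 and 7 on none, and none of the 15 tested passed. Their summed levels (log2 of the summed scaled signals) were 4.09 on H1, 3.54 on H2, 3.21 on R1 and 4.36 on R2. Such a sum follows mainly the brightest genes of its list, and genes at the floor enter it with the value of the floor. Where most genes of a list were dim, the sum is largely set by the floor. Of the 15 markers tested, 6 had H1 and R2 as their 2 highest arrays (38.8% of genes tested) and 7 had H2 and R1 (33.2%). CUBN, SLC5A1, SLC22A6, ALPL, VIL1, FBP1 and SLC7A9 were not well above background on any array. The endocytic receptor LRP2 ranged from -3.34 to -1.72, AMN, which anchors the receptor cubilin, from 0.15 to 2.84, the peptidase DPP4 from 1.16 to 2.79 and DAB2 from -0.77 to 1.92. ANPEP, a brush border peptidase, had 0.49 on H1 and 0.47 on R2 and was at the floor on the others, and SLC3A1, a cystine transporter subunit, had -2.02 and -1.25 there. MIOX, an enzyme of the proximal tubule, ran the other way, with -3.06, -0.07, -0.39 and -2.51.

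By their summed levels, the podocyte and endothelial marker lists did not separate H1 and R2 from H2 and R1, and the other marker lists did, in either direction. That split was first seen in these same arrays. H1 and R2 were the 2 highest arrays for 38.8% of genes tested, and H2 and R1 for 33.2%. Separation by a marker list is therefore no separate result about a cell type. Of 6 general epithelial markers, all were tested and all had H1 and R2 as their highest arrays (38.8% of genes tested). With a gap of at least 1 this held for 3 of the 6 (11.7% of genes tested). Their summed levels were 7.02 and 7.13 on H1 and R2 and 5.58 and 5.72 on H2 and R1. CDH1 (E-cadherin) had -0.72 and -1.12 on the former and was at the floor on the latter, while KRT19 and KRT7, keratins of simple epithelia, stayed at 3.48 or above on every array and EPCAM at 2.78 or above. Of 7 fibroblast and mesangial markers 3 were tested, and the summed levels were -2.42 and -2.49 on H1 and R2 and 0.98 and 0.59 on the others. On H1 only COL1A1 (-4.93) was well above background, and on R2 no gene of the list was. The sums on H1 and R2 are thus mainly those of genes at or near the floor. DCN and LUM, proteoglycans of the connective tissue, were well above background on H2 (-0.61 and 0.23) and R1 (-0.87 and -0.30) alone, COL1A1 stayed at or below -4.27, and COL1A2, COL3A1, PDGFRA and PDGFRB were not well above background on any array.

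Of 8 thick limb and distal markers 4 were tested, with summed levels of 0.52 and 0.82 on H1 and R2 and -1.59 and -1.47 on the others. SLC12A1, the thick limb salt transporter, had -0.51 and -0.10 on the former and was at the floor on the latter, CLDN16 had -1.10, -4.59, -3.93 and -0.94, and UMOD ranged from -3.04 to -2.70. Of 9 collecting duct markers 2 were tested, AQP2 and AQP3 were not well above background on any array, and the summed levels ran from -1.31 to -0.43, the latter with SCNN1A at -1.22 on H2. Of 7 podocyte markers 5 were tested, with summed levels from 0.62 to 0.97, and NPHS1 (nephrin) ranged from -4.88 to -2.25 while WT1 was at background. Of 5 endothelial markers 1 (CDH5) was tested, with summed levels from -2.18 to -1.26 and KDR, TEK and VWF at background. Of 5 leukocyte markers 3 were tested, with summed levels from -0.15 to 0.93, and CD68 ranged from -0.54 to 0.62. None of the genes tested in these lists passed, and the part of any other cell type in the levels of PAX2, EMX2, PAX8 and LHX1 was not tested.

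**Figure D4:**
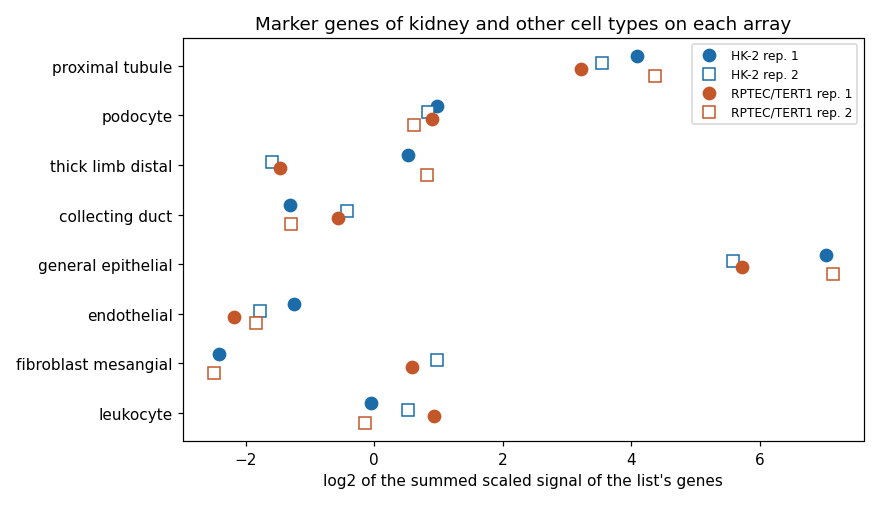
Summed level (horizontal axis, log2 of the summed scaled signal) of 8 lists of marker genes (rows) on the 4 arrays, in blue for HK-2 and orange for RPTEC/TERT1, filled circles for replicate 1 and open squares for replicate 2. General epithelial markers lie at 7.02 and 7.13 on H1 and R2, and fibroblast and mesangial markers lie at -2.42 and -2.49 there. The fibroblast and mesangial genes were at or near the floor on those 2 arrays.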

How the data were processed

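For each array the authors deposited spot intensities read by Agilent Feature Extraction 9.5.3.1 in 1 channel, background-subtracted and without scaling among arrays. A table of log2 values was deposited too, whose processing and centring are not given in the sources used here, and these served as an alternative. Labels and methods name different RNA kits. Probe positions are GRCh37, per the file headers, and no annotation of that build was used.

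Control and outlier-marked spots were not used. Each signal was scaled to its array's 75th percentile, floored and taken to log2, and spots of a probe were averaged. A gene is the mean of those of its probes that were marked above background on 1 array or more. The lines were compared by limma 3.58.1 (lmFit, eBayes, in R 4.3.3) over 16468 genes, with Benjamini-Hochberg adjustment at 0.05. The step was tested on simulated data with a spread of 0.2, below that of these arrays, which says little of its power here. Methods call the arrays of a line biological duplicates, and their number limits the precision. Each lay on a slide of its own.

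The factors and 13 further lists (171 genes, 168 with a value) were chosen with earlier results of these data known. Named are the factors, up to 3 genes per list with the highest mean level or widest range, and the 2 genes nearest to each factor. Genes named beyond this rule were chosen after their values were seen. Replicate numbers are shared by the lines and coincide with the scan date, and same-numbered arrays deviated from the means of their labels with a correlation of -0.810. Alternatives were normexp, quantile normalization, the deposited log2 values, other filters, other probe rules, outlier spots kept, the replicate block and leaving out each array. The crossed pairing as a block was added after seeing the data. A few genes of the lists are counted but not reported by name here.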

Additional observations from a re-analysis of the deposited data

How the results depend on the processing

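No gene passed the threshold in the comparison of the lines under any of the 14 alternatives, and genes at an unadjusted p under 0.05 numbered 3 to 241, beside 23 as reported. A factor reached an unadjusted p under 0.05 in 1 of these settings, without RPTEC/TERT1 replicate 1. The replicate number as a block gave 0 calls and 5 genes at an unadjusted p under 0.05. With the crossed pairing as a block, added after seeing the data, these were 0 and 183. Same-numbered arrays share a scan date. Their deviations had a correlation of -0.810, which with 2 arrays per label is the same for both numbers by construction, and the numbers were not taken to pair the arrays. With 2 arrays per line every difference of a factor was within its interval of 0, and its sign is not settled. With normexp the difference of HNF4G was 0.85 and that of PAX2 -0.58, and with the deposited log2 values they were 0.49 and -0.29. Leaving out each array in turn, the difference ranged from -2.85 to -0.17 for HNF4G, from -1.64 to 0.87 for PAX8 and from -1.29 to 1.39 for LHX1. In the 2 settings where they could be tested it ranged from -3.90 to 4.25 for PAX2 and from -3.84 to 3.60 for EMX2. An arm left with 1 array was assumed to vary like the other. The mean correlation of the arrays that pair across the labels exceeded that of arrays with the same label by 0.118, by 0.101 with normexp, by 0.10 with the deposited values, by 0.0742 without a filter on dim genes and by 0.114 to 0.134 leaving out each array. Signals at background (HNF4A, WT1) have no reliable order. The cause of these changes was not tested.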
